A study of Homo sapiens with 24 samples.

Results

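The genes described here encode 10 proteins of the cytosolic heat shock protein system: the stress-inducible HSP70 copies HSPA1A and HSPA1B, the constitutive HSP70 HSPA8, the HSP110 protein HSPH1, the HSP40 proteins DNAJB1 and DNAJA1, the HSP90 proteins HSP90AA1 and HSP90AB1, the small heat shock protein HSPB1 and the HSP70 cochaperone BAG3. They were taken by symbol from the 60564 rows of an RNA sequencing table, and all 10 were among the 15903 genes with enough signal to be tested. The table covered 24 libraries of total RNA from 2 established lines of human neuroblastoma, SK-N-BE(2), with amplification of MYCN, and SH-SY5Y, without it. In each line, NDUFS6, an accessory subunit of mitochondrial complex I, was lowered with a short hairpin RNA (knockdown) or raised with its full-length coding sequence (overexpression), so that the heat shock genes can be read in 8 groups of 3 libraries. Both constructs were delivered by lentivirus, and each came with cells of the same line that had received its own empty vector. All 8 groups, controls included, therefore went through infection and puromycin selection. How many hairpins were used, whether the cells were pools or clones, and what the empty vectors held is not stated in the labels. The SH-SY5Y knockdown titles carry an extra number that those of SK-N-BE(2) lack, so whether both lines received the same hairpin is unknown. The labels name biological replicates but not separate infections. A p-value here therefore sets a difference only against the spread of libraries within groups, pooled over the 8 groups. That spread may be technical.

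Heat shock proteins fold newly made and damaged proteins. HSP70 binds exposed hydrophobic stretches, HSP40 proteins deliver clients and start ATP hydrolysis, and HSP110 and BAG proteins exchange the nucleotide so that the client is released. HSP90 completes the folding of kinases and receptors, and small heat shock proteins hold unfolded proteins without using ATP. When misfolded protein accumulates in the cytosol, heat shock factor 1 (HSF1) binds heat shock elements, arrays of the units GAA and TTC in alternation, and raises the transcription of many of these genes, while HSPA8 and HSP90AB1 are abundant without stress. Neuroblastoma cells, like other tumour cells, are known to carry high levels of HSP90 and HSPA8.

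Promoter windows from RefSeq (GRCh38.p14, from 250 bases before each transcription start to 50 after it) were found for all 10 genes, 15 windows in all. They were searched for pairs of units separated by 2 bases, GAANNTTC and TTCNNGAA, each of which reads the same on both strands, and for runs of 3 units in either order, which contain both pairs and so overlap them. A pair was found in 9 of the 15 windows, against 13.5% of all 35116 windows in the RefSeq table, and a run of 3 units in 4 of them, against 0.490% of all windows. Pairs occurred for 8 of the 10 genes, and the windows of HSPH1 and BAG3 held none of these letters. The stretches below, written 5′ to 3′ on the gene's strand with the units in capitals, show the match before the start of the inducible HSP70 genes and DNAJB1, of the constitutive HSPA8, and of HSP90AA1 and HSP90AB1, whose responses differed. They were not chosen by the size of the response. BAG3, whose window holds none of these letters, rose about as much on knockdown in SK-N-BE(2) as DNAJB1 (log2 difference 1.76 and 1.73). Against the other empty vector of that line BAG3 rose less than DNAJB1, as given further on. HSP90AB1, with 2 runs of 3 units, did not pass the test in the same knockdown. For HSPA8 and HSP90AA1, whose matches lie within annotated exons, only the matches and a base on either side are printed.
HSPA1A: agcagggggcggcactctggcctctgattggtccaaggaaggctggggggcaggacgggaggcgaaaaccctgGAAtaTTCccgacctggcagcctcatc
HSPA1B: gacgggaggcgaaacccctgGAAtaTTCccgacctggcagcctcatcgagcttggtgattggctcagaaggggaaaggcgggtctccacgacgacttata
DNAJB1: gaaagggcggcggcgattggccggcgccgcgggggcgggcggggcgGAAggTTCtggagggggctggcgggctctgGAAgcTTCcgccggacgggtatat
HSP90AB1: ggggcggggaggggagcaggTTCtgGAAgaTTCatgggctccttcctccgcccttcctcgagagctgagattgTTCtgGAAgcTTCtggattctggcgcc
HSP90AA1: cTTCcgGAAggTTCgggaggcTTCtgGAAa
HSPA8, distal: tGAAagTTCcaGAAc
HSPA8, proximal: cTTCtgGAAggTTCt
These lay at chr6:31815364-31815463 and chr6:31827613-31827712 on the plus strand (HSPA1A and HSPA1B), chr19:14518421-14518520 on the minus strand (DNAJB1, the second of its 3 windows), chr6:44247758-44247857 on the plus strand (HSP90AB1, the third of its 3 windows), chr14:102087104-102087133 on the minus strand (HSP90AA1, the second of its 2 windows), and chr11:123062353-123062367 and chr11:123062178-123062192 on the minus strand (HSPA8). The pair began 106 bases before the start in HSPA1A and 105 in HSPA1B, and the 2 pairs of DNAJB1 began 77 and 47 bases before it. Runs of 3 units began 165 and 112 bases before the HSP90AB1 start, 88 before the HSP90AA1 start, and 230 and 55 before the HSPA8 start. DNAJA1, the remaining gene with a run of 3 units, had it just after its start. These matches are letters in the reference; the data hold no measurement of binding at them.

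FPKM, fragment counts scaled by transcript length and by the mapped fragments of the library, summed to between 249708 and 276091 in a library, and 12607 to 14018 genes reached 1 FPKM. The number of reads behind these values is unknown. NDUFS6 followed the labels, at 1.33 FPKM in the SK-N-BE(2) knockdown against 11.2 in its control and at 4.02 against 11.5 in SH-SY5Y, but its overexpression was 19.0-fold in SH-SY5Y (208 against 10.96 FPKM) and 1.34-fold in SK-N-BE(2) (17.2 against 12.8). The summed FPKM of 10 neuroblastoma markers was 607 or more in every library, although TH, an enzyme of catecholamine synthesis, was under 1 in all 4 SH-SY5Y groups. That sum lay at 948 to 1259 in the SK-N-BE(2) knockdown against 1893 to 1915 in its control, and at 607 to 632 against 836 to 845 in SH-SY5Y. A list of 7 fibroblast genes summed to 242 to 256 FPKM in the SH-SY5Y knockdown against 108 to 112 in its control, and to 140 to 162 against 123 to 128 in SK-N-BE(2). Of that list, COL1A2 was under 1 FPKM on average in every group, and DCN was in the SH-SY5Y groups other than the knockdown. The 5 immune markers summed to 8.63 to 11.7 FPKM in the SH-SY5Y knockdown, with CD68 the only one at 1 FPKM or more and CD3E and LYZ at 0, against 1.80 to 2.32 in its control and under 1 in all other groups, and the 4 endothelial markers summed to at most 0.245 in any library. The part of these shifts in the heat shock results was not tested, and in bulk RNA fewer cells of a kind and less RNA per cell cannot be told apart.

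The 10 genes spanned a wide range of levels. HSP90AB1 was the highest in every group, at group means from 471 to 995 FPKM, and in the SK-N-BE(2) groups it ranked 26th among all tested genes. HSPA8 and HSP90AA1 followed, with libraries from 155 to 345 FPKM and from 191 to 329.8 FPKM. BAG3 was the lowest of the 10 in all 4 SH-SY5Y groups and HSPH1 or BAG3 in the SK-N-BE(2) groups. BAG3 ran from 0.882 FPKM in a SH-SY5Y overexpression library to 21.3 in a SK-N-BE(2) knockdown library, a 24.1-fold range, the widest of the 10. HSPA1A and HSPA1B spanned 13.7-fold and 11.2-fold, while HSP90AA1 varied least, 1.72-fold over the 24 libraries. Together the 10 genes made up 1482 ± 7.16 FPKM (SD, n = 3) in the SK-N-BE(2) knockdown control and 1939 ± 76.7 in the knockdown, and 1202 ± 18.8 and 1051 ± 31.3 in the same SH-SY5Y groups. As a share of the FPKM outside genes of mitochondrial DNA, this was 0.824% and 1.06% in SK-N-BE(2) and 0.681% and 0.606% in SH-SY5Y.

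**Figure D1:**
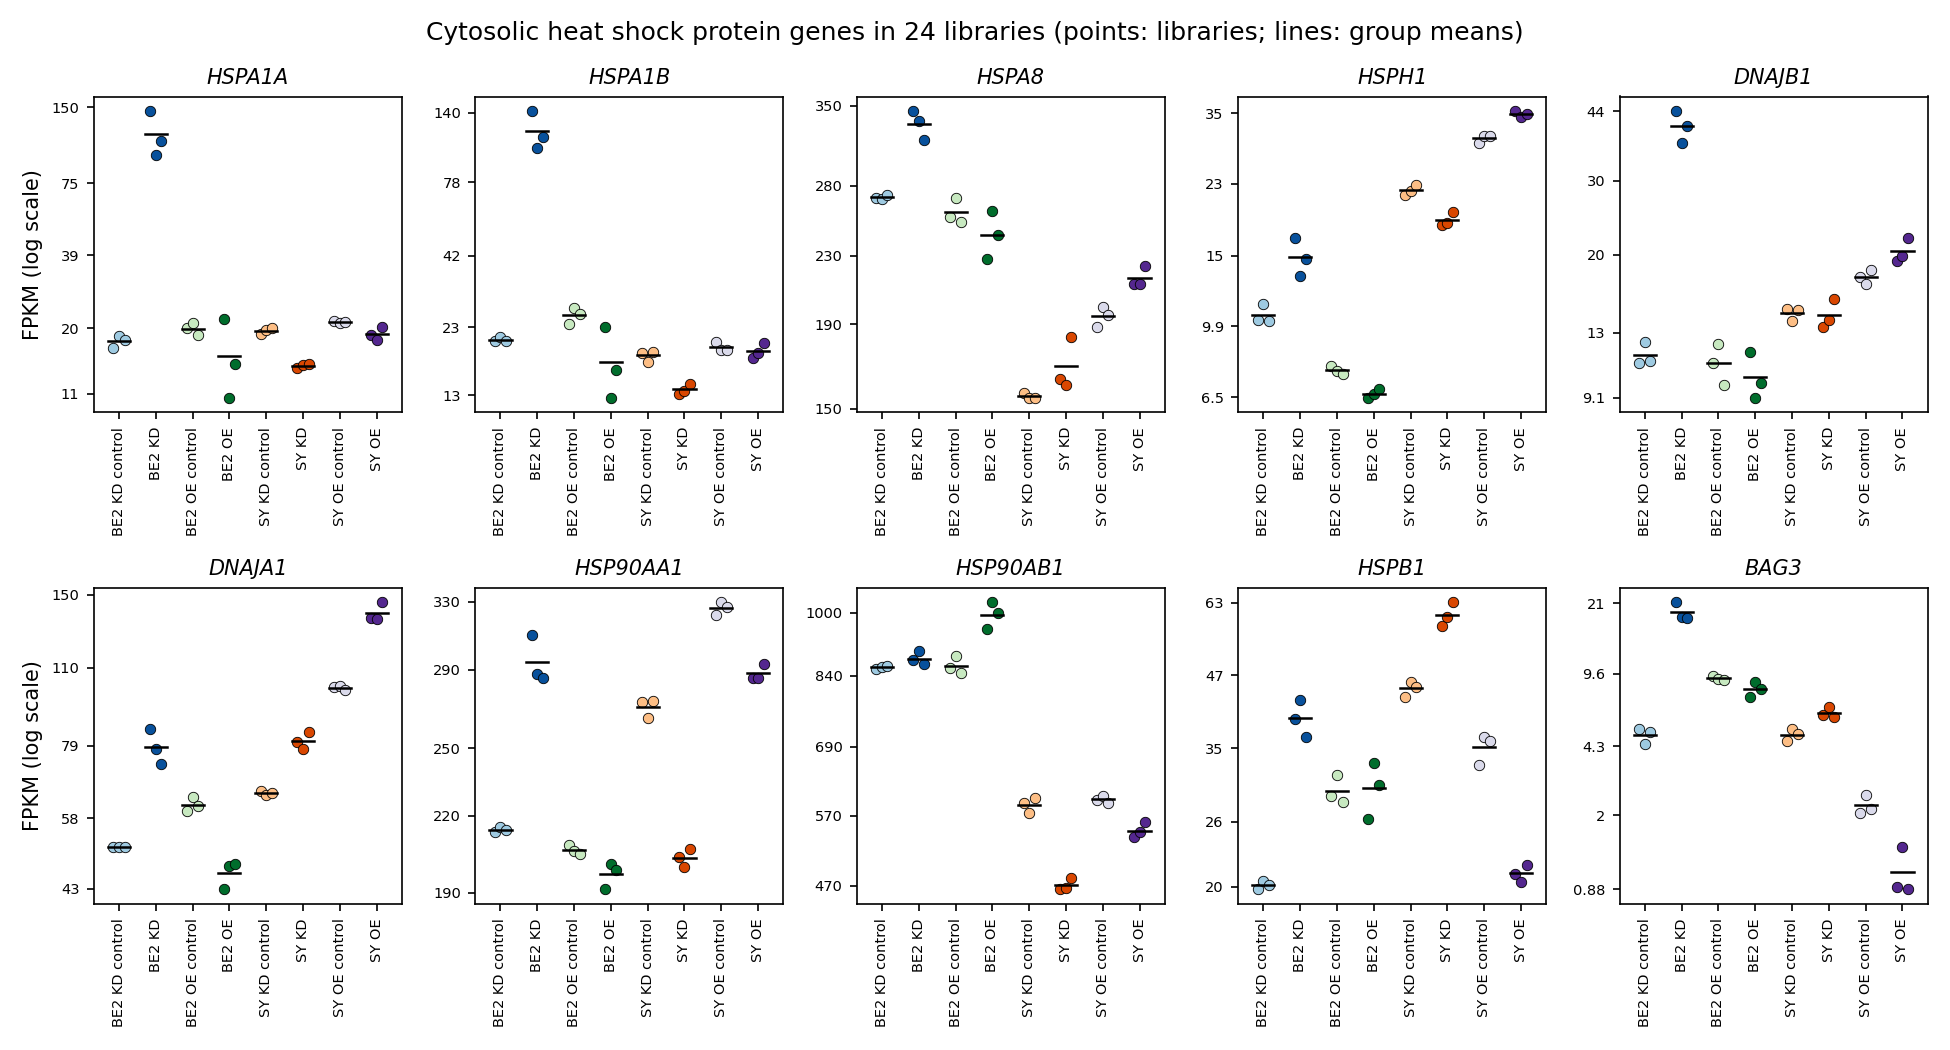
FPKM (log scale, 1 panel per gene) of the 10 heat shock genes in each library (points) with group means (lines); BE2 is SK-N-BE(2), SY is SH-SY5Y, KD is knockdown, OE is overexpression and control is the matching empty vector. The 3 SK-N-BE(2) knockdown libraries stand above all others for HSPA1A, HSPA1B, HSPA8, DNAJB1 and BAG3.

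Knockdown of NDUFS6 in SK-N-BE(2) raised 9 of the 10 genes and lowered 0. Genes were called with limma on log2(FPKM + 1) at a Benjamini-Hochberg adjusted p under 0.05, and by this rule 27.4% of the other tested genes were higher and 28.3% lower in the same comparison (60.8% of the called genes were higher, in place of 49.3%, when values were scaled to TPM, which gives every library the same total). The median difference of the 10 genes was 0.77 on the log2 scale, against -0.01 over all tested genes. With TPM scaling all 10 were called higher (33.8% of other genes were higher and 21.8% lower in that fit), and with HSPA1A and HSPA1B summed into a single row, an alternative chosen after seeing the data, 8 of 9 were. The SK-N-BE(2) knockdown libraries did not overlap their controls for any of the 10, which was also so for 62.2% of the other tested genes, in either direction.

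The inducible HSP70 genes rose most. HSPA1A (ENSG00000204389, hg38 chr6:31815464-31817946, plus strand) had 145, 96.8 and 111 FPKM on knockdown and 16.7, 18.6 and 17.9 in the controls. HSPA1B (ENSG00000204388, chr6:31827735-31830255, plus strand) was at 142, 104 and 114 against 20.5, 21.2 and 20.5 FPKM. The first knockdown library was the highest for both, and even the lowest knockdown library lay well above every control. The means differed 6.63-fold for HSPA1A (log2 difference 2.64, SE 0.157, limma adjusted p = 2.01e-11) and 5.77-fold for HSPA1B (2.46, SE 0.132, adjusted p = 4.57e-12). The transcripts of the 2 genes share 1766 stretches of 50 bases, 71.3% of those of HSPA1A and 71.4% of those of HSPA1B, and AL671762.1 overlaps exons of HSPA1B on the same strand, so how the authors' counting divided reads between them is uncertain. Their sum does not depend on that division within the pair, and it went from 38.5 ± 1.34 to 237 ± 44.9 FPKM (SD, n = 3), a 6.16-fold difference (log2 2.58, SE 0.146, limma adjusted p = 9.41e-12).

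The constitutive HSP70 and its exchange factor rose less. HSPA8 (ENSG00000109971, chr11:123057489-123063230, minus strand) was at 345, 335 and 318 FPKM in the knockdown and at 270.2, 269.9 and 273 in the controls, a log2 difference of 0.30 (SE 0.0514, limma adjusted p = 6.06e-05). HSPH1 (ENSG00000120694, chr13:31134974-31162388, minus strand), which lets HSP70 release its clients, was at 16.7, 13.3 and 14.7 against 10.2, 11.3 and 10.2 FPKM (0.45, SE 0.0560, adjusted p = 8.69e-07). Both groups were separate for each gene, but the size was 1.23-fold and 1.41-fold, far below that of the inducible copies.

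Among the HSP40 partners, DNAJB1 (ENSG00000132002, chr19:14514770-14529770, minus strand), the stress-inducible partner of HSP70, was at 44.1, 37.0 and 40.7 FPKM in the knockdown and at 11.01, 12.4 and 11.1 in the controls. This was a 3.53-fold difference (log2 1.73, SE 0.0863, limma adjusted p = 1.38e-12). DNAJA1 (ENSG00000086061, chr9:33025211-33039907, plus strand), an abundant HSP40 that also helps import into mitochondria, was at 84.9, 78.0 and 73.2 against 51.3, 51.5 and 51.3 FPKM (0.60, SE 0.0485, adjusted p = 1.95e-09). All knockdown libraries lay above all controls for both genes. Exons of TECR on the opposite strand overlap DNAJB1, and the labels do not say whether counting used strand.

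The HSP90 forms differed. HSP90AA1 (ENSG00000080824, chr14:102080738-102139699, minus strand), the inducible form, was at 310.0, 288 and 286 FPKM in the knockdown against 213, 215 and 214 in the controls (log2 difference 0.46, SE 0.0334, limma adjusted p = 4.84e-10). HSP90AB1 (ENSG00000096384, chr6:44246166-44253888, plus strand), the constitutive form, was at 877, 899 and 868 against 856, 859.8 and 864 FPKM. Its log2 difference of 0.04 did not pass the test (95% interval -0.04 to 0.11, adjusted p = 0.399), although it did with TPM scaling (0.14, adjusted p = 2.96e-05). Of their transcript stretches of 50 bases, 11.3% for HSP90AA1 and 16.6% for HSP90AB1 also occur in transcripts of other genes, mainly the pseudogenes HSP90AA2P and HSP90AB3P.

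HSPB1 (ENSG00000106211, chr7:76302544-76304295, plus strand), the small heat shock protein HSP27, went from 19.8, 20.5 and 20.2 FPKM in the controls to 39.4, 42.6 and 36.7 in the knockdown, a 1.96-fold difference (log2 0.94, SE 0.0682, limma adjusted p = 4.58e-10). BAG3 (ENSG00000151929, chr10:119651370-119677819, plus strand), which links HSP70 to small heat shock proteins and to selective autophagy, went from 5.23, 4.41 and 5.04 to 21.3, 18.1 and 17.8 FPKM, 3.89-fold (1.76, SE 0.0895, adjusted p = 1.87e-12). Both groups were again fully separate.

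In SH-SY5Y, knockdown of NDUFS6 gave a mixed and smaller picture: 3 of the 10 genes were higher, 5 lower and 2 did not pass the test. Over the other tested genes 26.3% were called higher and 29.6% lower (of the called genes 47.0% were higher, and 35.4% with TPM scaling, which moved the median of all genes to -0.10). The median of the 10 genes was -0.13 against -0.01 over all genes. The largest difference was 1.38-fold, that of HSPA1A. These calls also depended on the control used, as given further on.

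The inducible HSP70 genes were lower here. HSPA1A was at 13.9, 14.4 and 14.4 FPKM in the SH-SY5Y knockdown against 19.0, 19.6 and 20.1 in its controls (log2 difference -0.44, SE 0.157, limma adjusted p = 0.0234). HSPA1B was at 13.2, 13.5 and 14.3 against 18.5, 17.2 and 18.8 FPKM (-0.39, SE 0.132, adjusted p = 0.0174). No knockdown library reached a control. The spread in these calls is shared by all 8 groups and includes the wide SK-N-BE(2) groups, and each call was lost when the first knockdown library or the third control library was left out (adjusted p = 0.0586 and 0.0610 for HSPA1A, 0.0512 and 0.0516 for HSPA1B), and that of HSPA1A also without the second control library (0.0517) or without the filter on low values (0.0598). The sum of both went from 37.7 ± 1.05 to 27.8 ± 0.800 FPKM (SD, n = 3; log2 -0.42, adjusted p = 0.0177).

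HSP90 fell in both forms. HSP90AA1 was at 203, 199.6 and 206 FPKM against 273, 265 and 273 (log2 difference -0.41, SE 0.0334, limma adjusted p = 1.81e-09), and HSP90AB1 at 465, 467 and 480.4 against 591, 574 and 599 (-0.32, SE 0.0338, adjusted p = 8.45e-08). HSPH1 fell from 21.5, 22.0 and 22.9 to 18.0, 18.2 and 19.4 FPKM (-0.24, adjusted p = 0.000910). In all 3 genes the groups were separate.

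Of the remaining genes, 3 rose in the SH-SY5Y knockdown. HSPB1 went from 43.0, 45.8 and 44.9 to 57.3, 59.4 and 63.1 FPKM (log2 difference 0.42, SE 0.0682, limma adjusted p = 2.56e-05). DNAJA1 went from 65.2, 64.2 and 64.8 to 80.4, 77.9 and 83.8 FPKM (0.31, adjusted p = 1.37e-05). BAG3 went from 4.55, 5.19 and 4.94 to 6.11, 6.68 and 5.96 FPKM (0.30, adjusted p = 0.00762), a call that TPM scaling did not keep (0.24, adjusted p = 0.0846). DNAJB1 overlapped between the groups, at 13.4, 14.0 and 15.7 FPKM against 14.9, 13.9 and 14.8 (-0.02, 95% interval -0.20 to 0.16, adjusted p = 0.896), and HSPA8, at 163, 160.5 and 183 against 157, 155 and 155, missed the threshold (0.12, adjusted p = 0.0575).

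Whether the lines responded differently was tested with an interaction term, the knockdown difference in SK-N-BE(2) minus that in SH-SY5Y. All 10 genes were called higher, where 29.5% of the other tested genes were called higher and 26.3% lower (52.8% of the called genes were higher, and 69.8% with TPM scaling, which moved the median of all genes to 0.20). The largest interactions were those of HSPA1A (log2 3.08, SE 0.222, limma adjusted p = 4.07e-10), HSPA1B (2.85, SE 0.187, adjusted p = 1.01e-10), DNAJB1 (1.75, SE 0.122, adjusted p = 2.47e-10) and BAG3 (1.46, SE 0.127, adjusted p = 5.85e-09). HSP90AA1 had 0.87 and HSP90AB1 0.36. HSPH1, HSPB1 and DNAJA1 had 0.70, 0.52 and 0.29. HSPA8 was at the threshold (0.18, adjusted p = 0.0452) and lost its call when any 1 of 10 of the 12 libraries in this contrast was left out (adjusted p from 0.0633 to 0.125), the exceptions being the third knockdown library of each line. The call of HSPA8 was also lost without the filter on low values (limma adjusted p = 0.0760), with median ratio scaling (0.0736) and without trend and robust moderation (0.0547).

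**Figure D2:**
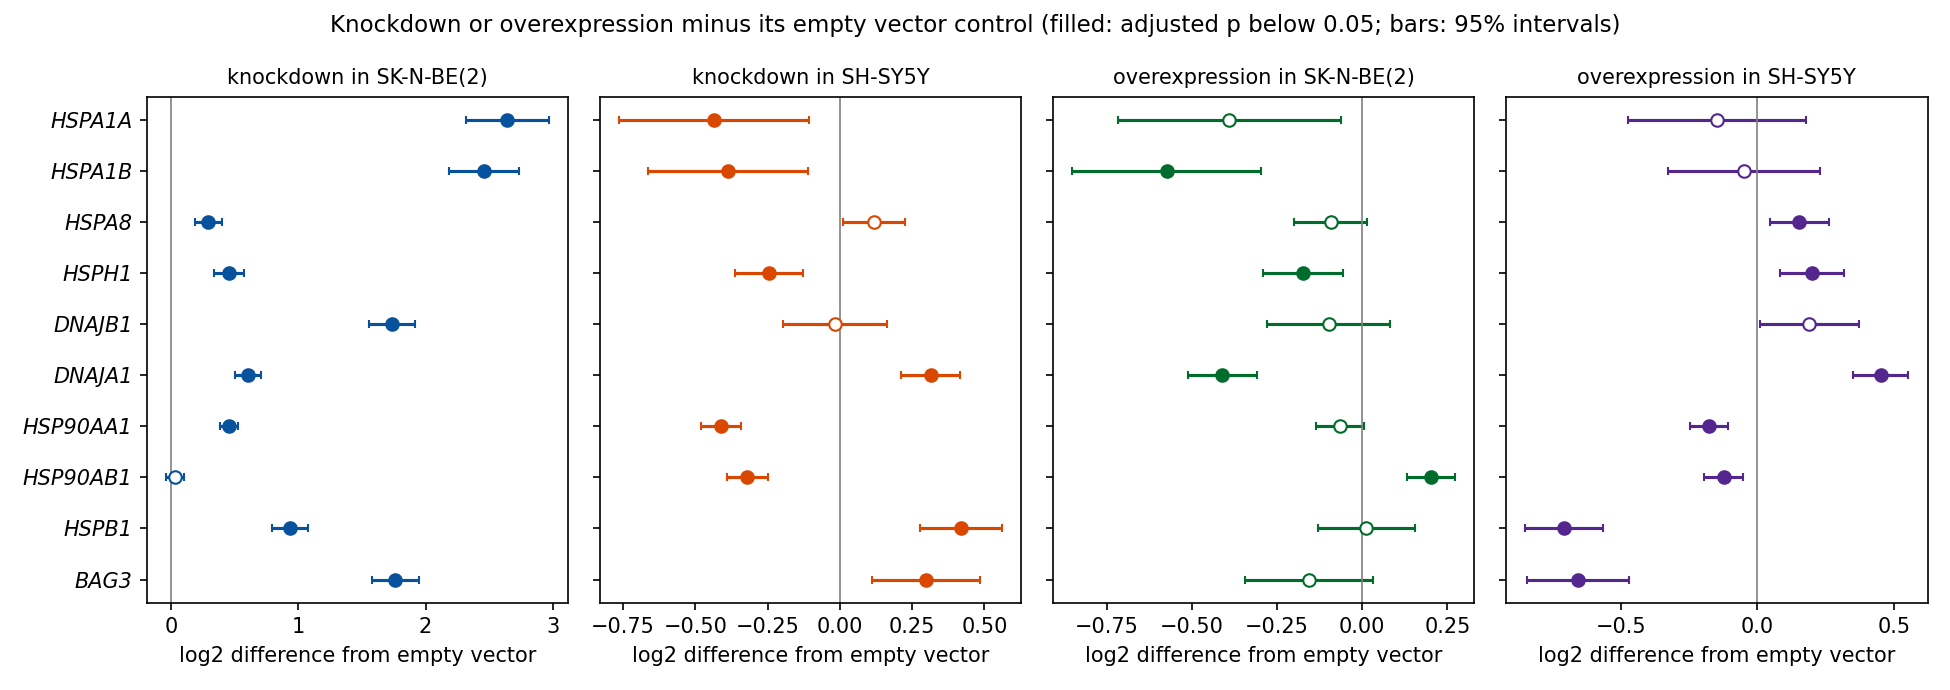
Log2 difference in log2(FPKM + 1) from the matching empty vector control for each heat shock gene in the 4 comparisons, with 95% intervals from limma; filled points passed an adjusted p of 0.05, and each panel has its own axis range. Knockdown in SK-N-BE(2) reaches 2.64 for HSPA1A, while no difference in the other 3 panels exceeds 0.71 in size.

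The ratio of inducible to constitutive forms, taken within each library, does not depend on how a library was scaled. The sum of HSPA1A and HSPA1B relative to HSPA8 was 0.833, 0.598 and 0.705 in the SK-N-BE(2) knockdown against 0.138, 0.148 and 0.141 in its control, so that the inducible pair went from a small fraction of HSPA8 to most of it. In the SH-SY5Y knockdown the same ratio was lower than in its control, 0.165 ± 0.00859 against 0.243 ± 0.00726 (SD, n = 3), and the groups did not overlap. HSP90AA1 relative to HSP90AB1 was 0.334 ± 0.0173 in the SK-N-BE(2) knockdown against 0.249 ± 0.00133, and 0.431 ± 0.00520 against 0.460 ± 0.00299 in SH-SY5Y. The SK-N-BE(2) overexpression libraries had the lowest HSP90 ratio of all, 0.198 ± 0.00279, against 0.239 ± 0.00579 in their control. These ratios were described and not tested.

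**Figure D3:**
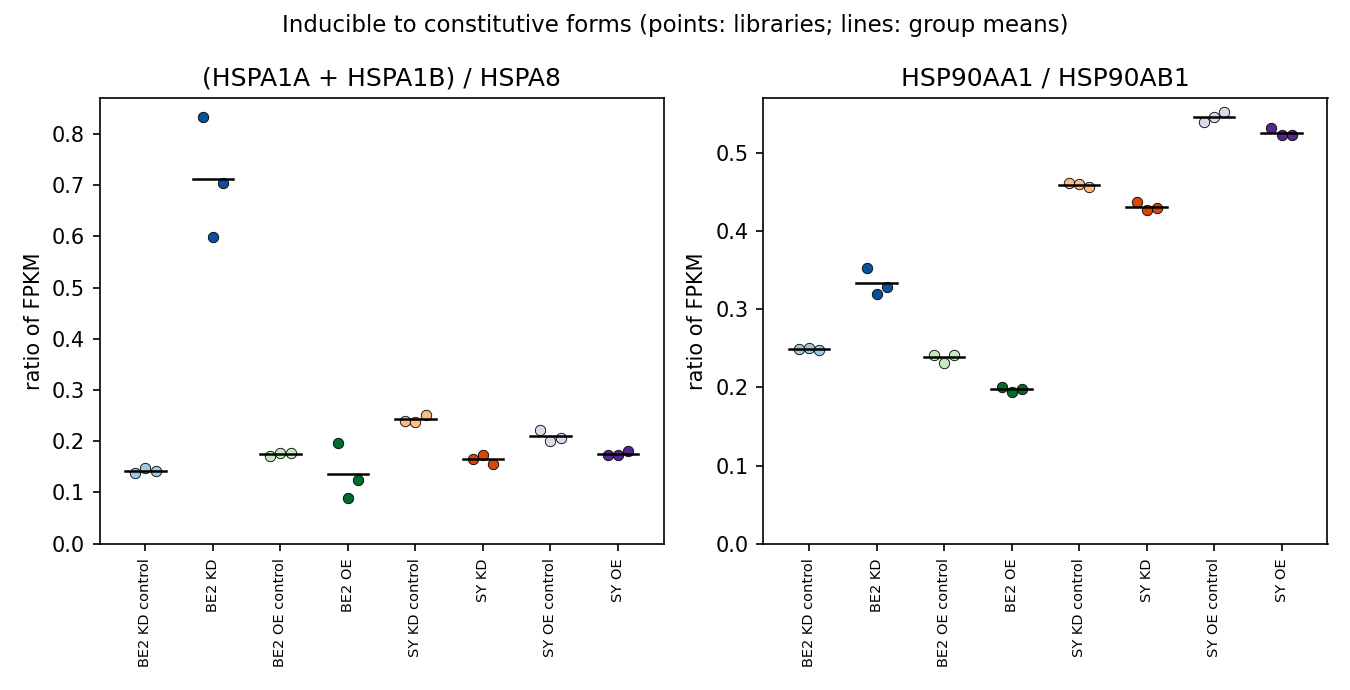
Ratio of FPKM of HSPA1A plus HSPA1B to HSPA8 (left) and of HSP90AA1 to HSP90AB1 (right) in each library (points) with group means (lines), groups abbreviated as BE2 and SY for the lines, KD for knockdown and OE for overexpression. The HSP70 ratio of the SK-N-BE(2) knockdown averages 0.712 and that of every other group is at most 0.243, while the HSP90 ratio is higher in every SH-SY5Y group than in any SK-N-BE(2) group.

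Overexpression of NDUFS6 in SK-N-BE(2), where NDUFS6 itself was only 1.34-fold higher, was accompanied by 1 gene higher and 3 lower of the 10, against 12.9% of other tested genes higher and 16.8% lower (of the called genes 43.4% were higher, 32.7% with TPM scaling and 53.8% with median ratio scaling). HSP90AB1 rose from 859, 888 and 847 to 956, 1030 and 999.9 FPKM (log2 difference 0.20, SE 0.0338, limma adjusted p = 0.000234), and the overexpression libraries lay above all controls. DNAJA1 fell from 59.9, 63.4 and 61.0 to 42.9, 47.3 and 47.7 FPKM (-0.41, SE 0.0485, adjusted p = 6.22e-06). HSPH1 was at 6.47, 6.62 and 6.81 FPKM against 7.79, 7.60 and 7.46 (-0.18, adjusted p = 0.0239), a call lost without the filter on low values, with median ratio scaling, and without the first or the second overexpression library or the first control library (adjusted p from 0.0519 to 0.0806). HSPA1B was at 23.0, 12.7 and 16.0 FPKM against 23.8, 27.0 and 25.7 (-0.57, SE 0.132, adjusted p = 0.00329), and HSPA1A at 21.8, 10.6 and 14.4 against 20.0, 20.9 and 18.8 (-0.39, adjusted p = 0.0666, but -0.65 and called without the first overexpression library). Their sum was 32.8 ± 10.9 FPKM against 45.4 ± 2.23 (SD, n = 3; log2 -0.50, adjusted p = 0.0136). The overexpression libraries thus differed among themselves about as much as from the controls: the first lay near the controls and the second was lowest. With only the 6 libraries of this comparison in the fit, 0 of the 10 genes were called higher and 1 lower, and 966 genes in all in place of 4715, while DNAJA1 kept its call.

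Overexpression in SH-SY5Y, where NDUFS6 was 19.0-fold higher, left the inducible HSP70 genes close to their controls, and 3 of the 10 genes were higher and 4 lower (15.4% and 17.2% of other tested genes). HSPA1A was at 18.9, 18.0 and 20.3 FPKM against 21.4, 21.0 and 21.2 (log2 difference -0.15, 95% interval -0.48 to 0.18, limma adjusted p = 0.518), and HSPA1B was at 17.7, 18.6 and 20.2 against 20.4, 19.1 and 19.0 (-0.05, adjusted p = 0.826). DNAJB1 was at 19.3, 19.9 and 21.9 against 17.7, 17.0 and 18.4 FPKM and did not pass (0.19, adjusted p = 0.0997). With only the groups compared in the fit, HSPA1A was called lower (limma adjusted p = 0.0435) and DNAJB1 higher (0.0314). The genes that fell most were HSPB1, from 32.8, 36.6 and 36.1 to 21.1, 20.4 and 21.9 FPKM (-0.71, SE 0.0682, adjusted p = 2.00e-07), and BAG3, from 2.06, 2.52 and 2.15 to 0.907, 1.40 and 0.882 FPKM, 2.11-fold lower (-0.66, SE 0.0895, adjusted p = 1.20e-05). HSP90AA1 and HSP90AB1 were lower by small margins (-0.18 and -0.12, adjusted p = 0.000347 and 0.00764). DNAJA1 rose from 101, 102 and 100.1 to 136, 135 and 145 FPKM (0.45, SE 0.0485, adjusted p = 7.47e-07), HSPH1 from 29.4, 30.6 and 30.6 to 35.4, 34.2 and 34.8 (0.20, adjusted p = 0.00958), and HSPA8 from 188, 199 and 195 to 212, 212 and 224 (0.15, adjusted p = 0.0272), a call lost without the third overexpression library or without either the first or the third control library (adjusted p from 0.0560 to 0.109).

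The overexpression differences were also compared between the lines. The difference in SK-N-BE(2) minus that in SH-SY5Y was positive and called for 3 of the 10 genes and negative for 4 (18.3% and 18.5% of other tested genes; 49.8% of the called genes were higher, and 38.3% with TPM scaling). DNAJA1 had the largest, -0.86 (SE 0.0685, limma adjusted p = 2.02e-08), since it fell in SK-N-BE(2) and rose in SH-SY5Y. HSPB1 and BAG3 had interactions of 0.72 and 0.50, and HSP90AB1 of 0.33, with HSP90AB1 higher in SK-N-BE(2) and lower in SH-SY5Y. The interaction of HSPA1B (-0.53, adjusted p = 0.0338) lost its call in 10 of 20 alternatives, among them the leaving out of either the second or the third library of each of the 4 groups (adjusted p from 0.0523 to 0.103), and was -0.34 without the second SK-N-BE(2) overexpression library.

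The empty vector controls of a line differed from each other, which bears on the smaller results. They share libraries with the comparisons above. In SK-N-BE(2), the overexpression control minus the knockdown control was higher for 3 of the 10 genes and lower for 1 (19.0% and 15.5% of other tested genes; 54.9% of the called genes were higher, and 74.9% with TPM scaling, which moved the median of all genes to 0.11). BAG3 was at 9.34, 9.10 and 8.93 FPKM in the overexpression control and at 5.23, 4.41 and 5.04 in the knockdown control (log2 difference 0.78, limma adjusted p = 1.03e-06), HSPB1 differed by 0.53 and DNAJA1 by 0.25, and HSPH1 by -0.43. In SH-SY5Y, 5 were higher and 2 lower (17.8% and 18.4%): DNAJA1 by 0.64, HSPH1 by 0.43, HSPA8 by 0.32 and HSP90AA1 and DNAJB1 by 0.27 each, with HSPB1 at -0.33 and BAG3 at -0.86. Without rescaling, the fit of all 24 libraries called neither HSPA1A nor HSPA1B in either line. Their sum differed by 0.23 (95% interval -0.07 to 0.54) in SK-N-BE(2) and by 0.11 (-0.20 to 0.41) in SH-SY5Y. Some alternatives did call them higher in the overexpression control. For HSPA1B of SK-N-BE(2), TPM scaling gave 0.40 (limma adjusted p = 0.0404), while fitting only the groups compared gave 0.28 (0.00458). For HSPA1A of SH-SY5Y, that smaller fit gave 0.11 (0.0223). The libraries of both controls were fully separate for each gene in each line.

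Set against the other empty vector of the line, the SK-N-BE(2) knockdown had 9 of 10 genes higher (22.5% of other genes higher, 25.2% lower), with HSPA1A at 2.48, DNAJB1 at 1.79 and BAG3 at 0.98. In the SH-SY5Y knockdown, HSPA8 and DNAJA1 changed direction (-0.20 and -0.32, both called), DNAJB1 was called lower (-0.29), and 8 of the 10 genes were lower (26.5% of other genes higher, 31.7% lower). HSPB1 and BAG3 stayed higher there, at 0.75 and 1.16. In the SK-N-BE(2) overexpression, 3 genes were higher and 4 lower (20.3% and 20.0% of other genes): BAG3 and HSPB1 were called higher, at 0.63 and 0.54, HSPA8 and HSP90AA1 were called lower, at -0.15 and -0.12, and HSPA1B lost its call (-0.29, adjusted p = 0.0856). In the SH-SY5Y overexpression, HSP90AA1 changed to 0.09 (called), DNAJB1 was called higher (0.46), and 5 genes were higher and 3 lower (26.5% and 28.9% of other genes). HSPB1 and BAG3 stayed lower there, at -1.04 and -1.52.

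**Figure D4:**
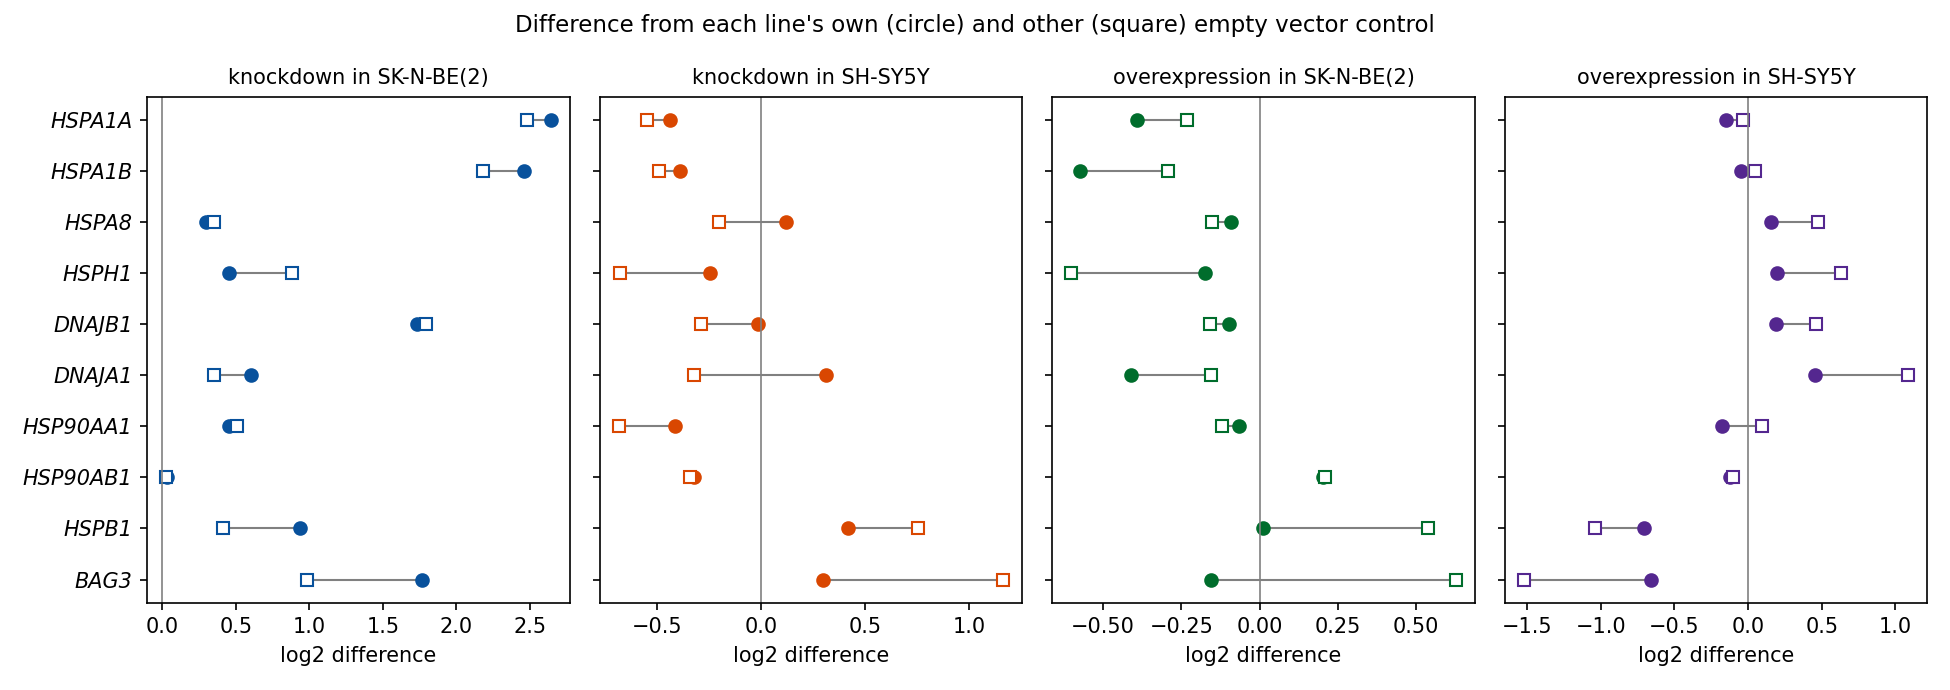
Log2 difference of each heat shock gene from the empty vector control made for that construct (filled circles) and from the other empty vector control of the same line (open squares) in the 4 comparisons, each panel with its own axis range. The SK-N-BE(2) knockdown panel has HSPA1A at 2.64 and 2.48 with the 2 controls, whereas DNAJA1 crosses 0 in the SH-SY5Y knockdown panel.

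The lines also differed before any change in NDUFS6. Averaged over their controls, 4 of the 10 genes were higher and 5 lower in SK-N-BE(2) than in SH-SY5Y (33.5% and 43.8% of other tested genes; TPM scaling moved the median of all genes from -0.08 to -0.12). The largest was HSPH1, with 10.2 to 11.3 and 7.46 to 7.79 FPKM in the SK-N-BE(2) controls against 21.5 to 22.9 and 29.4 to 30.6 in those of SH-SY5Y (log2 difference -1.43, SE 0.0396, limma adjusted p = 1.33e-17). BAG3 was higher in SK-N-BE(2) by 0.82, HSPA8 by 0.61, HSP90AB1 by 0.54 and HSPB1 lower by -0.68. HSP90AA1 was lower by -0.50, DNAJA1 by -0.52 and DNAJB1 by -0.48. HSPA1A did not pass (-0.11, adjusted p = 0.373), HSPA1B did (0.28, adjusted p = 0.0116), and their sum did not (0.09, adjusted p = 0.427).

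In the order of group means, the SK-N-BE(2) knockdown was first for HSPA1A, HSPA1B, HSPA8, DNAJB1 and BAG3. For HSPA1A and HSPA1B the other 7 groups lay close together: HSPA1A means ran from 21.2 FPKM in the SH-SY5Y overexpression control down to 14.2 in the SH-SY5Y knockdown, and the ranges of neighbouring groups in that order overlapped or nearly met. HSPB1 was highest in the SH-SY5Y knockdown (59.9 ± 2.95 FPKM), followed by its control (44.5 ± 1.43) and the SK-N-BE(2) knockdown (39.6 ± 2.97), whose ranges did not overlap. HSPH1 and DNAJA1 were highest in the SH-SY5Y overexpression (34.8 ± 0.612 and 139 ± 5.75 FPKM), HSP90AA1 in the SH-SY5Y overexpression control (326 ± 3.95) and HSP90AB1 in the SK-N-BE(2) overexpression (995 ± 37.7). BAG3 was lowest in both SH-SY5Y overexpression groups.

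Other genes of the chaperone system were read from lists chosen by function, and their counts stand beside the shares of other tested genes given above, 27.4% higher and 28.3% lower for knockdown in SK-N-BE(2) and 26.3% and 29.6% in SH-SY5Y. In the SK-N-BE(2) knockdown, 3 of 7 tested genes of the other cytosolic HSP70 and HSP110 list were higher and 0 lower (5 and 0 with TPM or median ratio scaling and against the other empty vector), but 1 of the 3, HSPA6, was tested only because it reached 1 FPKM in these knockdown libraries, so its call is no support. HSPA6, a strictly stress-induced HSP70, was at 1.68 to 1.72 FPKM in the knockdown libraries and at 0 to 0.0149 in the controls, and did not exceed 0.209 FPKM in any other group. Its transcript shares 45.5% of its 50-base stretches with HSPA7, so it is uncertain. Another of the 3, HSPA12A, had means of 0.543 FPKM in the knockdown and 0.170 in its control, both below 1 FPKM. HSPA4, an HSP110 relative, was higher by 0.65 (29.1 ± 0.722 to 46.1 ± 0.841 FPKM). In SH-SY5Y, 0 of these 7 genes were higher and 5 lower, led by HSPA12A (-1.81, 6.68 ± 0.112 to 1.19 ± 0.0944 FPKM) and HSPA4L (-1.41, 6.16 ± 0.227 to 1.70 ± 0.144 FPKM).

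Of 11 tested genes of the other cytosolic HSP40 list, 9 were higher and 0 lower in the SK-N-BE(2) knockdown (median 0.48), among them DNAJB4 (1.63, 4.02 ± 0.266 to 14.8 ± 3.84 FPKM) and DNAJA2 (0.60). In SH-SY5Y 3 were higher and 2 lower, 1 and 4 with TPM scaling and 2 and 5 against the other empty vector. Of the 9 genes of the other small heat shock protein list 6 were too low to test, and HSPB8 was tested only because it reached 1 FPKM in the knockdown libraries, so no count is read from this list. HSPB8, a partner of BAG3 in autophagy of damaged proteins, went from 0 to 0.0968 FPKM in the controls to 1.12 to 1.56 in the SK-N-BE(2) knockdown, and from 0.592 to 0.893 to between 2.41 and 2.98 in the SH-SY5Y knockdown.

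Of 11 HSP70 cochaperones, 4 were higher and 2 lower in the SK-N-BE(2) knockdown (median -0.04, and 0.06 with TPM scaling), and 5 and 3 in SH-SY5Y (1 and 5 against the other empty vector). BAG2, which inhibits the ubiquitin ligase CHIP, was higher in SK-N-BE(2) by 0.59. These SK-N-BE(2) counts lie near the shares over all genes. Of 14 tested HSP90 cochaperones, 5 were higher and 4 lower in SK-N-BE(2), also near those shares, and 9 and 4 with TPM scaling, while in SH-SY5Y 2 were higher and 8 lower. STIP1, which hands clients from HSP70 to HSP90, went from 43.3 ± 1.298 to 55.0 ± 1.84 FPKM in SK-N-BE(2) (0.34) and from 41.2 ± 0.213 to 29.5 ± 0.589 in SH-SY5Y (-0.47). CHORDC1, an HSP90 partner, was higher by 0.74 in the SK-N-BE(2) knockdown, lower by -0.63 in the SK-N-BE(2) overexpression and higher by 0.36 in the SH-SY5Y overexpression (0.00 against the other empty vector). FKBP4, an HSP90 partner of steroid receptors, fell from 39.0 ± 0.977 to 19.4 ± 0.402 FPKM in the SH-SY5Y knockdown (-0.97) and by a smaller amount in the SH-SY5Y overexpression (-0.34).

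Of 14 subunits of the cytosolic chaperonin TRiC and of prefoldin, which fold actin and tubulin, 7 were higher and 3 lower in the SK-N-BE(2) knockdown (2 and 1 against the other empty vector) and 2 and 7 in SH-SY5Y (2 and 11 against the other empty vector), with CCT2 at 0.37 and -0.33. In the SK-N-BE(2) overexpression 6 were higher and 0 lower (12.9% and 16.8% of other tested genes). CCT8 was at 0.40 there, but at 0.09 and not called against the other empty vector (limma adjusted p = 0.211). Of 16 other genes known to respond to heat, 11 were higher and 2 lower in the SK-N-BE(2) knockdown (median 0.44), led by the autophagy receptor SQSTM1 (2.11, 7.55 ± 0.341 to 36.0 ± 3.75 FPKM), the collagen chaperone SERPINH1 (2.06, 13.6 ± 0.185 to 60.3 ± 7.54) and ZFAND2A, a proteasome-associated protein (1.58). In SH-SY5Y 2 were higher and 8 lower, and the 2 were SERPINH1 (1.23) and SQSTM1 (1.12). FKBP4, CHORDC1, TCP1, HSPD1 and HSPE1 are on this list and also on the HSP90 cochaperone, TRiC or mitochondrial chaperone list. STIP1 is on both cochaperone lists. The counts of these lists are therefore not independent.

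Of the 4 tested genes of the heat shock factor list, 2 were higher and 2 lower in the SK-N-BE(2) knockdown and 0 higher and 2 lower in that of SH-SY5Y. HSF1 was at 7.49 ± 0.318 FPKM in the SK-N-BE(2) knockdown against 6.47 ± 0.824 in its control, with overlapping groups (log2 difference 0.19, limma adjusted p = 0.0236; 0.0533 without the filter on low values, and 0.0876 to 0.145 without the second knockdown, the second control or the third control library), and at 6.60 ± 0.298 against 6.58 ± 0.233 in SH-SY5Y (adjusted p = 0.964). HSF1 was higher in the SK-N-BE(2) overexpression (0.24, adjusted p = 0.0143), where HSPA1B was lower, and this call was lost when only the groups compared were fitted (adjusted p = 0.103) and without the second overexpression library or the third control library (0.0784 and 0.0882). HSF2, a related factor, went from 21.0 ± 0.308 to 25.1 ± 1.04 FPKM in SK-N-BE(2) (0.25, adjusted p = 0.000537) and from 21.7 ± 0.694 to 12.5 ± 0.992 in SH-SY5Y (-0.75, adjusted p = 2.05e-10). These are transcript levels; the activity of the factors was not measured.

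Chaperones of other compartments were set beside the cytosolic genes. All 11 listed chaperones of the endoplasmic reticulum were higher in the SK-N-BE(2) knockdown (median 2.43), with HSPA5 (BiP), the HSP70 of that compartment, at 3.83 and its HSP40 partner DNAJB9 at 3.12, against 2.64 for the cytosolic HSPA1A. In SH-SY5Y 7 were higher and 1 lower (median 0.32), and HSPA5 was higher by 0.39, or by 0.03 (adjusted p = 0.665) against the other empty vector. The SH-SY5Y overexpression had 6 of 11 higher and 0 lower (15.4% and 17.2% of other tested genes), with HSPA5 at 0.47. Of 9 mitochondrial chaperones 3 were higher and 3 lower in the SK-N-BE(2) knockdown (5 and 2 with TPM scaling), with the mitochondrial HSP70 HSPA9 at 0.91, and 1 and 4 in SH-SY5Y, where HSPD1, the mitochondrial HSP60, fell from 125 ± 1.17 to 82.9 ± 1.69 FPKM (-0.58).

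Likeness of pattern was measured as Pearson's r over the 24 libraries of log2(FPKM + 1), after the mean of each line was taken away, among 7218 other genes of at least 5 FPKM on average. It is a description, since libraries of a group share their construct and 1 group can set r. The genes most like DNAJB1 were DNAJB11, MANF, MCL1, HSPA1A and HSPA1B, each at 0.97, the first a chaperone and the second a secreted protein of the endoplasmic reticulum. Those most like HSPA8 were RALA and DNAJA1 (0.93 each), SPCS2 (0.93), PSMD12 and SRPRB (0.92 each). HSP90AA1 was most like its cochaperone STIP1 (0.96), then LINC01116, SARAF, GPRASP2 and PJA1 (0.92 to 0.94). Among those most like HSPB1 were RHOC, MOV10, KYAT3 and ARRDC3 (0.96 to 0.97). Within the 10 genes, HSPA1A and HSPA1B had 0.995, HSPA8 and HSPH1 0.88, HSP90AA1 and HSPH1 0.87, and HSPB1 and BAG3 0.94, whereas HSPB1 had -0.39 with HSPH1 and HSP90AB1 had at most 0.44 with any of the others. HSPB1 and BAG3 were thus higher in both knockdowns and lower in the SH-SY5Y overexpression, although BAG3 also had 0.48 with HSPA1A and 0.46 with HSPA1B. The 2 genes also moved together between the empty vector controls, by 0.53 and 0.78 in SK-N-BE(2) and by -0.33 and -0.86 in SH-SY5Y. DNAJA1, HSPA8 and HSPH1 were all higher in the SH-SY5Y overexpression.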

How the data were processed

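Per the labels, total RNA was extracted with TRIzol and sequenced on an Illumina NovaSeq after a TruSeq preparation that keeps strand. Per the submitters' processing notes, the tools were StringTie 1.3.1c, FastQC 0.11.2 and STAR, the last with no version, and the build was hg38. How fragments were counted and against which annotation is not stated there. The authors deposited FPKM values per gene. With no counts, depth is unknown, and the spread of libraries within groups, pooled over the 8 groups, is the only measure of precision. FPKM are shares of a library, so large changes in some genes shift all others.

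Testing was limited to genes that reached 1 FPKM in 3 or more libraries and used limma 3.58.1 (R 4.3.3, the data.table package, version 1.17.8; trend and robust moderation) on log2(FPKM + 1), which understates changes of low genes, with a single model of all 24 libraries and 8 groups (16 residual degrees of freedom). Tests were two-sided, adjusted after Benjamini and Hochberg over all tested genes and called under 0.05. NDUFS6 was left out of counts over all genes. The fit was checked on simulated data with independent noise in each library and few genes changed. That setting differs from these data, so it does not give the rate of false calls here.

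The genes, the lists (heat shock factors, other HSP70 and HSP110, HSP40, HSP70 and HSP90 cochaperones, small heat shock proteins, TRiC and prefoldin, heat-induced genes, chaperones of the endoplasmic reticulum and mitochondria, and cell type markers) and the alternatives were chosen with earlier results of these data known. Named were the 10 genes, at most 3 called genes per list and comparison by smallest adjusted p (some left out, and values of the same genes in other comparisons), the 5 genes most like each of DNAJB1, HSPA8, HSP90AA1 and HSPB1, and NDUFS6; 2 results under this rule are not reported here. HSF1 in the knockdowns was named after its values were seen. Positions came from GENCODE 29, promoters from RefSeq GRCh38.p14, and figures were drawn with matplotlib 3.10.9 (Python 3.11.15). Alternatives were a pseudocount of 0.1, no filter, a mean of at least 5 FPKM, TPM and median ratio scaling, only the groups compared, no trend, a replicate block, the other empty vector control and each library left out.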

Additional observations from a re-analysis of the deposited data

Results flagged for a closer look

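The response to knockdown or overexpression was compared between the cell lines as an interaction with limma over all tested genes. A difference was found for all 10 genes on knockdown and for 7 on overexpression. Of the other tested genes, 55.8% and 36.8% also had one. Values are the log2 difference in SK-N-BE(2) minus that in SH-SY5Y. On knockdown they were 3.08 for HSPA1A, 2.85 for HSPA1B, 1.75 for DNAJB1, 1.46 for BAG3, 0.87 for HSP90AA1, 0.70 for HSPH1, 0.52 for HSPB1, 0.36 for HSP90AB1, 0.29 for DNAJA1 and 0.18 for HSPA8, with adjusted p from 5.61e-12 (HSP90AA1) to 0.0452 (HSPA8, whose call was lost in 13 of 21 alternatives). On overexpression they were -0.86 for DNAJA1, -0.53 for HSPA1B, -0.37 for HSPH1, -0.25 for HSPA8, 0.72 for HSPB1, 0.50 for BAG3 and 0.33 for HSP90AB1, with adjusted p from 2.02e-08 (DNAJA1) to 0.0338 (HSPA1B, whose call was lost in 10 of 20 alternatives). NDUFS6 fell 8.36-fold in the SK-N-BE(2) knockdown and 2.85-fold in that of SH-SY5Y, and rose 1.34-fold and 19.0-fold on overexpression, so the lines also differed in the size of the change in NDUFS6, which cannot be told apart from the line. With groups of 3 libraries, single outlying libraries were not searched for.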

How the results depend on the processing

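Over the 90 results for single genes (10 genes in 9 comparisons), the alternatives gave 1552 values, of which 1461 kept their direction and side of the threshold, 44 lost the call, 27 gained it and 20 changed direction. A pseudocount of 0.1 and the replicate block moved none of them to the other side. Over 18 pairs of same-numbered libraries, r of their deviations from the group means ran from -0.08 to 0.37, with 2 above 0.1. These 2 were in the SK-N-BE(2) overexpression and its control, at 0.14 for the first libraries and 0.37 for the second. The third libraries there had -0.08. In the other comparisons the numbers did not pair the libraries, and in that one a pairing was not settled. The replicate block uses the same terms in all 8 groups, so it does not model pairing within 1 comparison. With it, 9 genes stayed higher in the SK-N-BE(2) knockdown.

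With a mean of at least 5 FPKM fewer genes were tested (7219), and the genes called over all numbered 4843 for knockdown in SK-N-BE(2), 4592 for knockdown in SH-SY5Y, 2885 for overexpression in SH-SY5Y, 4573 and 3374 for the knockdown and overexpression interactions, 3230 and 3207 between the controls of SK-N-BE(2) and of SH-SY5Y, and 5940 between lines. TPM scaling gave 6 genes lower in the SK-N-BE(2) overexpression and 5 higher between the SK-N-BE(2) controls, and turned HSPB1 in the SK-N-BE(2) overexpression (-0.043), HSF1 in the SH-SY5Y knockdown (-0.090) and, between the SK-N-BE(2) controls, HSPA8 (0.047), DNAJB1 (0.040) and HSP90AA1 (0.052), none called. Median ratio scaling turned DNAJB1 in the SH-SY5Y knockdown (0.019) and HSP90AB1 between the SK-N-BE(2) controls (-0.015). Only the groups compared gave, for overexpression in SK-N-BE(2), 0 genes higher, 1 lower and 966 over all. The other empty vector control gave 8 genes lower in the SH-SY5Y knockdown, with HSPA8 at -0.20 and DNAJA1 at -0.32, 3 higher in the SK-N-BE(2) overexpression, with BAG3 at 0.63, and 5 higher in the SH-SY5Y overexpression, with HSPA1B at 0.050, HSP90AA1 at 0.092 and 8809 over all. The cause of these changes was not tested.

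Leaving out each library gave 3 to 5 genes lower in the SH-SY5Y knockdown (3 without its first library or the third control) and 2754 to 6196 called genes in the SK-N-BE(2) overexpression (2754 without its second library, 3082 without the third control). Directions near 0 turned within -0.077 to 0.027 for DNAJB1 and -0.023 to 0.034 for HSF1 in the SH-SY5Y knockdown, -0.062 to 0.10 for HSPB1 in the SK-N-BE(2) overexpression, and -0.13 to 0.015 for DNAJB1 and -0.012 to 0.022 for HSP90AB1 between the SK-N-BE(2) controls. In the SK-N-BE(2) knockdown 9 genes stayed higher whichever library was left out.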
